A study of Mus musculus with 31 samples.

Results

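The 10 circadian clock genes *Arntl*, *Clock*, *Npas2*, *Per1*, *Per2*, *Per3*, *Cry1*, *Nr1d1*, *Dbp* and *Tef*, were followed across 31 mouse livers. They were taken by symbol from the 31172 gene symbols measured in each liver, and all 10 had a value in every mouse. The 31 mice were hFIX-R29X animals of both sexes, aged 8 to 14 weeks, which carry a human factor IX minigene with the R29X nonsense mutation under the human transthyretin promoter and lack the mouse *F9* gene. All were treated by subcutaneous injection, with 6 doses at 5-day intervals, and livers were taken 48 h after the sixth injection. DPBS, the saline vehicle, was given to 11 mice (n = 11). Of the others, 4 received Control-GalNAc-ASO, an antisense oligonucleotide without a mouse target that carries a sugar cluster for uptake by hepatocytes, at 15 mg/kg (n = 4), and 6 received it at 20 mg/kg (n = 6). In addition, 5 received Upf3b-GalNAc-ASO, directed at the nonsense-mediated decay factor *Upf3b*, at 10 mg/kg (n = 5), and 5 received it at 20 mg/kg (n = 5). No source used here gives the hour of the day at which a liver was taken. Whether the groups were collected at the same clock phase was therefore examined only through the clock genes themselves. A difference between groups in a rhythmic gene cannot be told apart here from a different hour of collection.

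The clock is a loop of transcription and repression that turns about once a day in nearly every liver cell. The proteins of *Arntl* (BMAL1) and *Clock*, or of *Npas2* in place of *Clock*, pair on E-box elements and activate the *Per* and *Cry* genes, whose proteins return to repress them, as well as *Nr1d1* (REV-ERBα) and *Dbp*. REV-ERBα represses *Arntl* through ROR elements, and the proteins of *Dbp* and *Tef* act on D-box elements of further genes. In mouse liver *Arntl* and *Npas2* are high around the start of the light period and low at its end, while *Nr1d1* and then *Dbp* and *Per3* are high in the second part of the light period.

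The start-site windows of these genes were read for letters that match the elements named above. RefSeq windows of 300 bases (250 before and 50 after an annotated start, GRCm38.p6) were at hand for 9 of the 10 genes, 14 windows in all, with none for *Per2*. They were searched on both strands for the E-box CACGTG, which reads alike on both strands, for the D-box TTATGTAA, whose other strand reads TTACATAA, and for the ROR element core AGGTCA, whose other strand reads TGACCT. Of all 32851 windows, 7.15% held the E-box, 0.938% the D-box and 16.3% the ROR element core. Among the clock genes the E-box lay in windows of *Per1*, *Cry1* and *Tef*, the D-box in the window of *Per3* and the ROR element core in windows of *Arntl*, *Clock* and *Per1*, and no match overlapped another. These were 4, 1 and 3 of the 14 windows. The windows of *Nr1d1* and *Dbp* held no E-box. The stretches around the E-box and D-box matches and around the *Arntl* match are given here. Each reads 5′ to 3′ on the strand of its gene, with the element in capitals.
Per1, chr11:69098761-69098810, plus strand: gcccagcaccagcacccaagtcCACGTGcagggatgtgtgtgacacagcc
Cry1, chr10:85185087-85185136, minus strand: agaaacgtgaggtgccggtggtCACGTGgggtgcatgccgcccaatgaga
Tef, upstream start, chr15:81802524-81802573, plus strand: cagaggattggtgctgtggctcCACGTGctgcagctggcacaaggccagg
Tef, downstream start, chr15:81811254-81811303, plus strand: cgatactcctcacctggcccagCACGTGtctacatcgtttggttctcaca
Per3, chr4:151044794-151044892, minus strand: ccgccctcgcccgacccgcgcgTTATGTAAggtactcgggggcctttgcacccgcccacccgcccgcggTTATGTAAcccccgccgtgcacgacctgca
Arntl, chr7:113207520-113207560, plus strand: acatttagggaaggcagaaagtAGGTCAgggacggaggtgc
*Per3* was the gene with 2 D-boxes, at positions −205 and −158 relative to its start. These matches describe the letters of the windows, and no binding was measured.

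The expression values are TPM, transcript abundance scaled to a common total in each library, and 1 read was worth between 0.135 and 0.980 TPM depending on the mouse. Reads per library were inferred from the commonest TPM step of each mouse. They ran from 1020676 to 7391615 (median 3627941). The paper gives a larger average sequencing depth, and the reason for the gap was not tested. On the inferred scale 3 reads, the least taken as detection here, corresponded to 0.406 to 2.94 TPM. This floor covers counting error only. There were 4 libraries under 1500000 reads. The shallowest, labelled Upf3b-GalNAc-ASO 10 mg/kg replicate 3, correlated with the rest of its group at a median r of 0.677, against 0.853 at most in that group. Its *Upf3b* level of 53.7 TPM lay inside the 27.1 to 78.7 TPM of the 15 mg/kg control mice, whereas the other 4 mice of its group had 3.95 to 23.3 TPM. At 20 mg/kg *Upf3b* was 2.57 to 16.7 TPM with the *Upf3b* ASO and 85.3 to 135 TPM with the control ASO. Defining hepatocyte transcripts (*Alb*, *Apoa1*, *Ttr*, *Serpina1c*, *Tat*) summed to 12470 TPM or more in every mouse. In these whole-liver samples fewer cells of a type and less RNA per cell cannot be told apart.

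The activator arm was close to or below detection, apart from *Clock*. *Arntl* (chr7:113207465-113314126) was listed at 0 in 15 of 31 mice and had fewer than 3 reads in 18 of them. Its highest value was 3.30 TPM, in control ASO 20 mg/kg replicate 1. *Npas2* (chr1:39193731-39363236) was listed at 0 in 28 mice and never reached 3 reads in any. *Arntl* averaged 0.767 TPM in DPBS mice (from 0 to 2.51, n = 11) and 0.325 ± 0.308 TPM with the *Upf3b* ASO at 20 mg/kg (SD, n = 5). The 5 groups overlapped in both genes, and a difference between them was not detectable at this depth. An exact two-sided permutation test on mean log2(TPM + 1) gave p of 0.398 or more for *Arntl* in each of the 6 treatment comparisons and 0.167 or more for *Npas2*. For *Npas2* the outcome was fixed wherever all mice of both groups were at 0. Elsewhere its values lay under 3 reads, so its test could not show a difference.

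*Clock* (chr5:76209868-76304792), whose protein pairs with that of *Arntl*, was detected in every mouse. In DPBS mice it ranged from 18.2 to 59.6 TPM (median 28.6). Values in the 15 mg/kg control mice were 23.2, 28.4, 25.6 and 25.4 TPM, a narrow band. With the *Upf3b* ASO at 10 mg/kg the mice held 63.7, 43.0, 106.8, 16.9 and 36.9 TPM. The value of 106.8 TPM, the highest of all 31 mice, came from the shallowest library, and the group also holds the lowest *Clock* value of the series. Control mice at 20 mg/kg ranged from 23.1 to 51.2 TPM (median 32.9), and *Upf3b* ASO mice at that dose held 54.8, 38.6, 25.3, 56.7 and 45.8 TPM. *Clock* was the one tested clock gene with a positive difference in all 4 comparisons of an *Upf3b* ASO group. No control group received 10 mg/kg. The 10 mg/kg group was set against the 15 mg/kg control, so target and ASO dose differ together in that contrast. The difference was 0.87 ± 0.43 for 10 mg/kg against the 15 mg/kg control and 0.35 ± 0.31 between the 20 mg/kg groups (log2(TPM + 1), SE, adjusted p of 0.336 and 0.585, limma). Without the shallowest library the first value was 0.58, and no call was made with or without it.

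The *Per* genes, which encode the repressors that close the loop, were detected at moderate levels. *Per3* (chr4:151003652-151044665) ranged from 12.5 to 49.0 TPM in DPBS mice (median 27.7). Control mice at 15 mg/kg held 21.997, 17.4, 19.6 and 24.8 TPM and the 10 mg/kg *Upf3b* mice 15.9, 11.4, 26.5, 5.43 and 9.54 TPM. Of those 5 *Upf3b* mice 4 lay below every 15 mg/kg control, and the fifth, from the shallowest library, lay above them. With 20 mg/kg the control mice ranged from 8.44 to 52.4 TPM (median 24.3) and the *Upf3b* mice held 13.4, 13.8, 5.99, 8.30 and 16.0 TPM. All 5 were below 5 of the 6 controls at that dose. The difference in log2(TPM + 1) was −0.65 ± 0.43 at 10 mg/kg and −0.998 ± 0.43 at 20 mg/kg against the control ASO (SE, adjusted p of 0.472 and 0.221, limma). Against DPBS it was −1.005 ± 0.34 and −1.17 ± 0.33 (SE, adjusted p of 0.377 and 0.0886, unadjusted 0.00771 and 0.00152, limma). These 4 contrasts share animals, since both *Upf3b* groups were set against the same 11 DPBS mice. The annotated span of *Camta1* covers *Per3* on the same strand.

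*Per2* (chr1:91415982-91459324) gave a like picture with wider spread. It ranged from 7.38 to 33.7 TPM in DPBS mice (median 23.6). With the control ASO at 15 mg/kg the values were 22.5, 21.5, 27.3 and 5.54 TPM, and the 10 mg/kg *Upf3b* mice 9.74, 17.4, 3.92, 19.8 and 6.96 TPM. The control mouse at 5.54 TPM lay among the low *Upf3b* mice, so the groups overlapped. Controls given 20 mg/kg ranged from 7.82 to 30.6 TPM (median 17.0) and the *Upf3b* mice held 7.03, 15.0, 3.68, 14.7 and 8.62 TPM. The log2(TPM + 1) difference from DPBS was −1.01 ± 0.41 at 10 mg/kg and −1.15 ± 0.39 at 20 mg/kg (SE, adjusted p of 0.519 and 0.182, limma), and from the control ASO −0.79 ± 0.53 and −0.84 ± 0.47 (SE, adjusted p of 0.476 and 0.350, limma). Without the shallowest library the 10 mg/kg difference from DPBS was −0.65.

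*Per1* (chr11:69095217-69109960), the family member that also responds within hours to glucocorticoids and other acute signals, followed another order. DPBS mice ranged from 5.91 to 27.1 TPM (median 13.6). In the 15 mg/kg control group they were 12.96, 31.2, 11.9 and 38.5 TPM and the 10 mg/kg *Upf3b* mice 15.6, 15.4, 23.5, 15.6 and 1.55 TPM. Control mice at 20 mg/kg were the low group, from 0.406 to 8.30 TPM (median 2.95), and the *Upf3b* mice at that dose held 0, 56.8, 4.60, 4.40 and 7.39 TPM. Of the 6 control mice at 20 mg/kg, 3 were below 1 TPM, which no DPBS mouse was. The 20 mg/kg control group differed from DPBS by −1.94 ± 0.49 in log2(TPM + 1) (SE, unadjusted p = 0.000524, adjusted p = 0.288, limma), and leaving out each mouse in turn kept the difference between −2.24 and −1.61. The 15 mg/kg control group differed from the same DPBS mice by 0.67 ± 0.44 (SE, adjusted p = 0.745, limma), and the 2 control groups were not tested against each other. *Per1* was under the level minimum for limma between the 20 mg/kg groups, where the exact two-sided permutation test gave p = 0.420 for a difference of 0.93. That difference includes the mouse at 56.8 TPM and was not tested without it. Against DPBS the *Upf3b* ASO at 20 mg/kg gave −1.10 ± 0.61 (SE, adjusted p = 0.497, limma), and −1.80 without the mouse at 56.8 TPM.

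*Cry1* (chr10:85131700-85185064), the partner of the *Per* proteins in repression, ranged from 0 to 14.5 TPM and had fewer than 3 reads in 10 of 31 mice. It is highest in mouse liver at the end of the night, as *Arntl* and *Npas2* begin to peak. Its group means lay between 2.50 ± 2.62 TPM (10 mg/kg *Upf3b* ASO, SD, n = 5) and 5.15 ± 6.36 TPM (15 mg/kg control ASO, SD, n = 4). The exact two-sided permutation test gave p of 0.429 or more in all 6 treatment comparisons.

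*Nr1d1* (chr11:98767932-98775333), the repressor of *Arntl*, ranged from 2.53 to 29.3 TPM in DPBS mice (median 19.6). The 15 mg/kg control mice held 31.4, 16.7, 17.9 and 14.3 TPM and the 10 mg/kg *Upf3b* mice 9.42, 22.1, 5.88, 8.68 and 16.8 TPM. Controls at 20 mg/kg ranged from 8.94 to 23.1 TPM (median 19.3) and the *Upf3b* mice held 13.8, 62.8, 21.2, 8.30 and 14.8 TPM. All groups overlapped, and the value of 62.8 TPM exceeded the 31.4 TPM maximum of the other 30 mice. The log2(TPM + 1) differences were −0.75 ± 0.48 and 0.06 ± 0.46 against the control ASO at 10 and 20 mg/kg (SE, adjusted p of 0.457 and 0.959, limma). The last 1075 bases of *Nr1d1* overlap *Thra* on the opposite strand (chr11:98767932-98769006). The library type was detected automatically in the authors' quantification, and the type found is not given in the sources used here, so how reads of this overlap were assigned is uncertain. Across all 31 mice the residuals of the 2 genes after group and sex had an r of 0.05, given as a description.

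*Dbp* (chr7:45705088-45710203), an activator through D-boxes and among the genes of largest daily amplitude in liver, had the largest negative difference of the tested clock genes in all 4 comparisons of an *Upf3b* ASO group with all mice included. DPBS mice ranged from 64.6 to 226.4 TPM (median 91.0). The 15 mg/kg control mice held 120.8, 141.8, 119.2 and 259.0 TPM, and the 10 mg/kg *Upf3b* mice 22.5, 116.4, 14.2, 54.1 and 68.8 TPM. Those 2 groups did not overlap, with 116.4 TPM as the highest *Upf3b* value and 119.2 TPM as the lowest control. The means were 160.2 ± 66.6 TPM (SD, n = 4) and 55.2 ± 40.9 TPM (SD, n = 5). The difference in log2(TPM + 1) was −1.89 ± 0.48, a 3.71-fold lower level (SE, unadjusted p = 0.00131, adjusted p = 0.0882, limma). Leaving out each mouse in turn kept it between −2.23 and −1.46, with an adjusted p between 0.0533 and 0.326. Against DPBS the 10 mg/kg difference was −1.28 ± 0.39 (SE, unadjusted p = 0.00353, adjusted p = 0.268, limma), and −0.91 without the shallowest library.

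At 20 mg/kg the *Dbp* values turned on 1 mouse. Control mice ranged from 44.2 to 167.9 TPM (median 100.5) and the *Upf3b* mice held 28.6, 0, 137.0, 70.7 and 63.7 TPM. The difference from the control ASO was −1.69 ± 1.20 (SE, adjusted p = 0.496, limma) and −0.55 without the mouse listed at 0. Against DPBS it was −1.76 ± 0.84 (SE, adjusted p = 0.429, limma) and −0.61 without that mouse. The *Upf3b* difference at 20 mg/kg minus that at 10 mg/kg was 0.05 ± 1.45 (SE, adjusted p = 0.998, limma), which leaves a wide range either way. *Dbp* values were whole numbers of reads, within 0.02 of a read, in 3 of 31 mice, against 29 or more for each of the other 9 genes, so that part of its reads was divided among transcripts by the authors' quantification. Its last 737 bases overlap *Sphk2* on the opposite strand (chr7:45709467-45710203), and *Sphk2* was whole in 7 mice. The sum of both genes was whole in 2 mice, and which transcripts shared the *Dbp* reads was not tested.

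*Tef* (chr15:81802421-81826863), the other D-box activator of the set, ranged from 613.8 to 1849.8 TPM in DPBS mice (median 827.8). The 15 mg/kg control mice held 568.7, 687.1, 719.4 and 758.1 TPM, and the 10 mg/kg *Upf3b* mice 618.7, 636.4, 120.5, 596.7 and 838.9 TPM. The shallowest library gave the value of 120.5 TPM and the other 4 overlapped their controls. Controls at 20 mg/kg ranged from 378.3 to 834.6 TPM (median 683.0) and the *Upf3b* mice held 894.8, 616.1, 479.8, 797.5 and 418.8 TPM. All 4 ASO groups had a lower mean than DPBS, by −0.42 to −1.01 in log2(TPM + 1), and none passed the threshold (adjusted p of 0.351 or more, limma). Without the shallowest library the 10 mg/kg *Upf3b* difference was −0.49 against DPBS and −0.06 against the 15 mg/kg control.

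**Figure D1:**
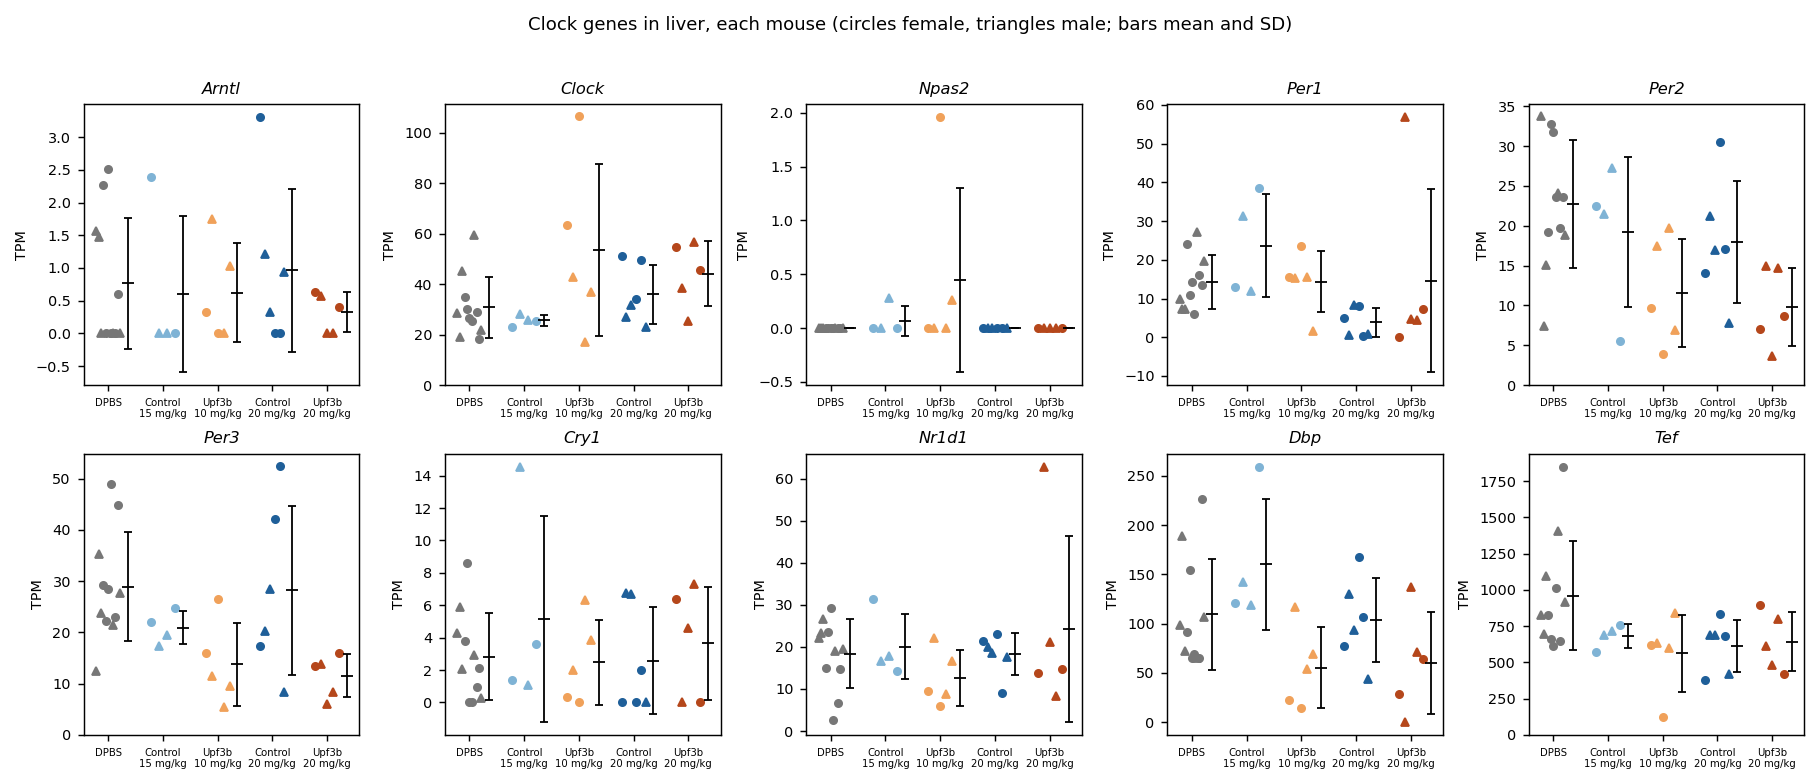
TPM of the 10 clock genes in each liver, by group, with females as circles, males as triangles and the mean and SD as bars. *Dbp* of the 10 mg/kg *Upf3b* mice lies wholly below the 15 mg/kg controls, *Arntl* and *Npas2* lie near 0 throughout, and 1 mouse at 20 mg/kg of the *Upf3b* ASO holds the highest *Per1* (56.8 TPM) and *Nr1d1* (62.8 TPM) and a *Dbp* of 0.

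The mouse with *Dbp* at 0, *Upf3b* ASO 20 mg/kg replicate 2, stood apart in several clock genes at once. Its 5208482 reads put the 3-read floor at 0.576 TPM, and the lowest *Dbp* of the other 30 mice was 14.2 TPM. Of all genes, *Dbp* lay lowest in this mouse relative to the lowest of the others, by the ratio of TPM + 1. In the same mouse the acute-phase gene *Saa2* reached 12829 TPM against at most 349.3 TPM, the stress cytokine *Gdf15* 10376 TPM against at most 702.1 TPM, and the immediate early gene *Jun* 803.9 TPM against at most 38.4 TPM. These genes were named after their values were seen. *Bhlhe40*, a repressor of the clock that also responds to acute signals, was 319.5 TPM in this mouse against at most 88.7 TPM in DPBS mice. The part of these signals in the clock gene values of this mouse was not tested.

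With sex as the covariate, no clock gene passed an adjusted p of 0.05 in the treatment comparisons by limma over all genes tested. Each test took in 7 of the 10, or 6 between the 20 mg/kg groups. The *Upf3b* ASO against its control called 27 of 9166 genes at 10 mg/kg (0.295%) and 236 of 9376 at 20 mg/kg (2.52%). Against DPBS it called 34 of 9032 genes at 10 mg/kg (0.376%) and 103 of 9078 at 20 mg/kg (1.13%). The control ASO against DPBS called 0 of 8971 at 15 mg/kg (0%, with 644 genes at an unadjusted p under 0.05) and 0 of 9140 at 20 mg/kg (0%, with 905). The difference between the *Upf3b* effects at the 2 doses called 0 of 9797 (0%, with 799). At an unadjusted p under 0.05 and lower, the clock genes gave 1 of 7 for *Upf3b* ASO 10 mg/kg against its control, where 7.94% of all genes were so placed, and 1 of 6 at 20 mg/kg, against 11.4%. Against DPBS they gave 4 of 7 (*Dbp*, *Per2*, *Per3*, *Tef*) at 10 mg/kg, against 4.42%, and 3 of 7 (*Per2*, *Per3*, *Tef*) at 20 mg/kg, against 6.53%. The control ASO at 20 mg/kg gave 2 of 7, *Per1* and *Tef*, against 2.75%, and at 15 mg/kg 0 of 7, against 2.93%. Without the shallowest library, against DPBS at 10 mg/kg, *Dbp* and *Per3* kept an unadjusted p under 0.05 (0.0286 and 0.00253, limma). *Per2* and *Tef* did not (unadjusted p of 0.120 and 0.0791, limma).

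Read as a set, the median difference of the tested clock genes was −0.75 for *Upf3b* ASO 10 mg/kg and −0.39 for 20 mg/kg against the control ASO, beside medians of −0.03 and −0.12 over all genes tested. Against DPBS it was −1.005 and −1.10, beside 0.03 and 0.05 over all genes, with 6 of 7 and 5 of 7 genes below 0. The control ASO gave medians of −0.19 at 15 mg/kg and −0.14 at 20 mg/kg, beside 0.07 and 0.15. The medians against DPBS were the most sensitive to single mice, at −0.49 without the shallowest library for 10 mg/kg and −0.59 without the mouse with *Dbp* at 0 for 20 mg/kg, where 8 genes were then above the level minimum. Of the contrasts in which groups did not overlap, *Dbp* at 10 mg/kg against its control was the one among clock genes. There, 2.73% of all genes lay lower with no overlap.

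**Figure D2:**
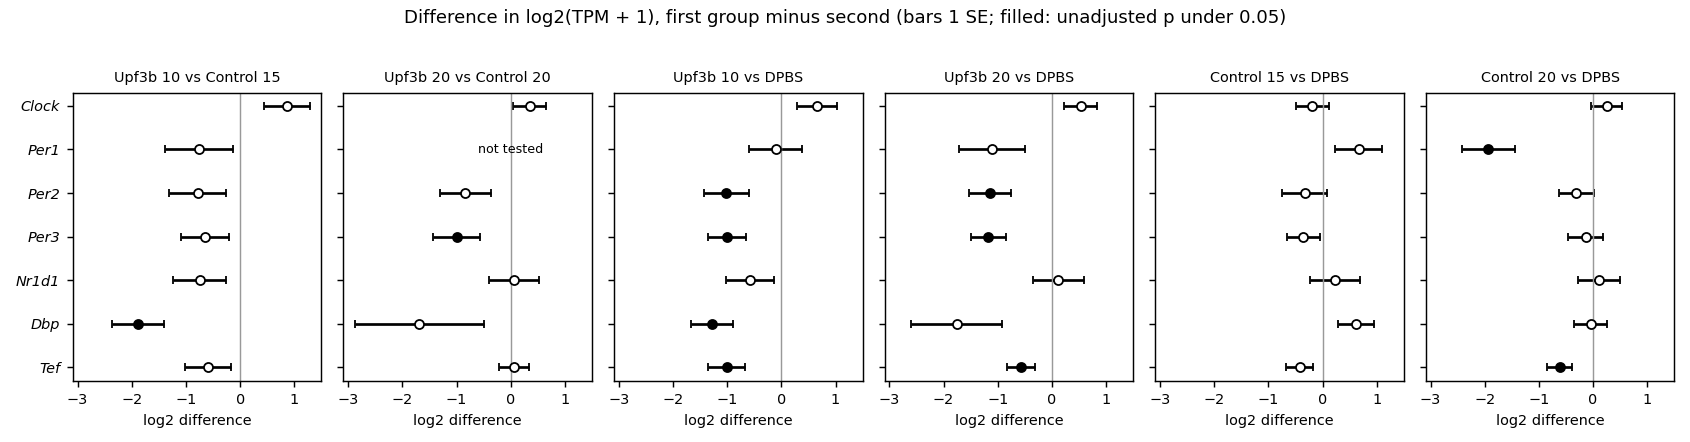
Difference in log2(TPM + 1) between groups for the 7 clock genes above the level minimum, first group minus second, with 1 SE, and filled where the unadjusted p is under 0.05. *Dbp* at 10 mg/kg against the control ASO (−1.89) and *Per1* of the 20 mg/kg control ASO against DPBS (−1.94) are the largest single differences that are filled, and *Per1* was not tested between the 20 mg/kg groups.

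Genes around this core were examined as 14 other clock genes, 12 clock-output genes and 9 genes of systemic cues. Of the other clock genes 12 were tested in each treatment comparison. *Ciart*, a repressor of the activator pair, was lower with the *Upf3b* ASO at 10 mg/kg than with DPBS. The difference was −2.29 ± 0.46 in log2(TPM + 1) (SE, adjusted p = 0.0211, limma). The 10 mg/kg mice held 1.30, 4.48, 1.96, 6.73 and 2.06 TPM against 4.18 to 35.5 TPM in DPBS mice (median 14.5), so the groups overlapped. *Ciart* was also lower in the control ASO mice, with −1.58 at 15 mg/kg and −1.62 at 20 mg/kg (adjusted p of 0.691 and 0.441, limma), and the *Upf3b* ASO differed from its control by −0.77 at 10 mg/kg and 0.86 at 20 mg/kg (adjusted p of 0.588 and 0.619, limma). The *Ciart* call was lost when all 31 mice shared a fit, and without DPBS replicate 1 or 3 or without *Upf3b* 10 mg/kg replicate 1, 3 or 5, with an adjusted p of up to 0.0884.

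*Hlf*, the relative of *Dbp* and *Tef*, was 1.62 ± 0.36 lower with the *Upf3b* ASO at 20 mg/kg than with the control ASO (SE, adjusted p = 0.0204, limma). The *Upf3b* mice held 30.7, 9.60, 14.7, 44.0 and 52.5 TPM and the controls 46.8 to 177.2 TPM (median 84.2), with 1 *Upf3b* mouse inside the control range. Its value at 10 mg/kg was −0.67 against the control ASO (adjusted p = 0.605, limma). The 20 mg/kg call was lost when all 31 mice shared a fit or no level minimum was set, and without control replicate 3 or *Upf3b* replicate 1, with an adjusted p of up to 0.0817 over these settings. *Bhlhe40* at 10 mg/kg was 12.0, 21.4, 2.94, 27.4 and 14.7 TPM, below all 4 controls at 36.2 to 60.3 TPM, with −1.84 ± 0.45 against them and −1.81 ± 0.41 against DPBS (SE, adjusted p of 0.0828 and 0.0521, limma). *Nr1d2* (REV-ERBβ) gave −1.19 and −1.07 in the same 2 contrasts (adjusted p of 0.178 and 0.343, limma). At the other end, *Timeless* was the highest of the other clock genes in 4 of the 6 treatment comparisons, from 0.91 to 1.20, with no call. *Cry2* was the lowest at 10 mg/kg against the control, at −2.05 (adjusted p = 0.165, limma).

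Among the 12 clock-output genes, 11 were tested, and the ubiquitin protease *Usp2* stood lowest in both *Upf3b* groups against DPBS. DPBS mice ranged from 28.4 to 73.3 TPM (median 49.8), the 10 mg/kg *Upf3b* mice held 4.22, 13.2, 0.980, 7.60 and 11.6 TPM, and the 20 mg/kg *Upf3b* mice 13.2, 11.1, 12.4, 5.86 and 5.75 TPM. Both *Upf3b* groups lay wholly below DPBS, where 0.21% of all genes at 10 mg/kg and 0.474% at 20 mg/kg lay lower with no overlap. *Usp2* fell by 2.89 ± 0.38 at 10 mg/kg and by 2.26 ± 0.31 at 20 mg/kg against DPBS (SE, adjusted p of 0.000155 and 0.000114, limma), and no left-out mouse changed either call. Control mice at 15 mg/kg held 36.2, 34.8, 30.9 and 44.0 TPM, and the 10 mg/kg difference from them was −2.51 ± 0.53 (SE, adjusted p = 0.0593, limma). At 20 mg/kg the control mice ranged from 3.75 to 64.5 TPM (median 24.5), and the difference from them was −0.95 ± 0.57 (SE, adjusted p = 0.379, limma). Of those 6 control mice 2 were as low as the *Upf3b* mice. Against DPBS the control ASO itself gave −0.38 ± 0.27 at 15 mg/kg and −1.27 ± 0.39 at 20 mg/kg (SE, unadjusted p of 0.178 and 0.00312, adjusted p of 0.773 and 0.349, limma).

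*Lpin1*, the phosphatidate phosphatase and coactivator induced by fasting, was lower with the *Upf3b* ASO at 20 mg/kg. The difference was −1.51 ± 0.32 against the control ASO and −1.75 ± 0.35 against DPBS (SE, adjusted p of 0.0148 and 0.00779, limma). The *Upf3b* mice held 140.4, 300.9, 108.7, 113.3 and 111.8 TPM, the controls 200.7 to 637.6 TPM (median 456.9) and DPBS mice 201.3 to 933.4 TPM (median 498.8). The mouse at 300.9 TPM, the one with *Dbp* at 0, was the one that overlapped the other groups. The first call was lost without control replicate 3 or *Upf3b* replicate 1 or 6, and the second without *Upf3b* replicate 6, with adjusted p of up to 0.0648 and 0.0646. *Alas1*, the first enzyme of heme synthesis, gave −1.14 ± 0.33 and −1.21 ± 0.31 in the same contrasts (SE, adjusted p of 0.0713 and 0.0534, limma). No output gene was called higher in a treatment comparison, where the highest was *Avpr1a* at 1.20 with the control ASO at 20 mg/kg (adjusted p = 0.312, limma). *Nampt* at 0.44 and 0.78 was the highest in the 20 mg/kg *Upf3b* comparisons, *Noct* at 0.89 and 0.76 in those at 10 mg/kg and *Por* at −0.85 the lowest with the control ASO at 15 mg/kg.

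The cue genes report glucocorticoid, temperature and heat-shock signals that set the liver clock. Of the 9, 7 or 8 were tested, and none was called in a treatment comparison. The lowest adjusted p was 0.109, for the chaperone *Hsp90aa1* at 1.58 ± 0.42 between the *Upf3b* ASO at 10 mg/kg and its control (SE, limma). Against DPBS, *Hsp90aa1* gave −1.22 for that control and 0.19 for the *Upf3b* ASO at 10 mg/kg (adjusted p of 0.691 and 0.921, limma). The glucocorticoid target *Tsc22d3* gave 1.09 for the control ASO at 15 mg/kg against DPBS and −0.92 for the *Upf3b* ASO against that control. Between the 20 mg/kg groups the list ran from *Hsph1* at −0.83 to *Cirbp* at 0.29, and against DPBS from −0.84 to 0.27 for the same 2 genes. *Fkbp5*, another glucocorticoid target, was the highest of the list at 0.39 with the control ASO at 20 mg/kg and the lowest at −0.26 with the *Upf3b* ASO at 10 mg/kg, both against DPBS. In the contrasts given above for *Tsc22d3*, *Fkbp5* had the opposite signs, at −0.43 and 0.17 (adjusted p of 0.774 and 0.850, limma).

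**Figure D3:**
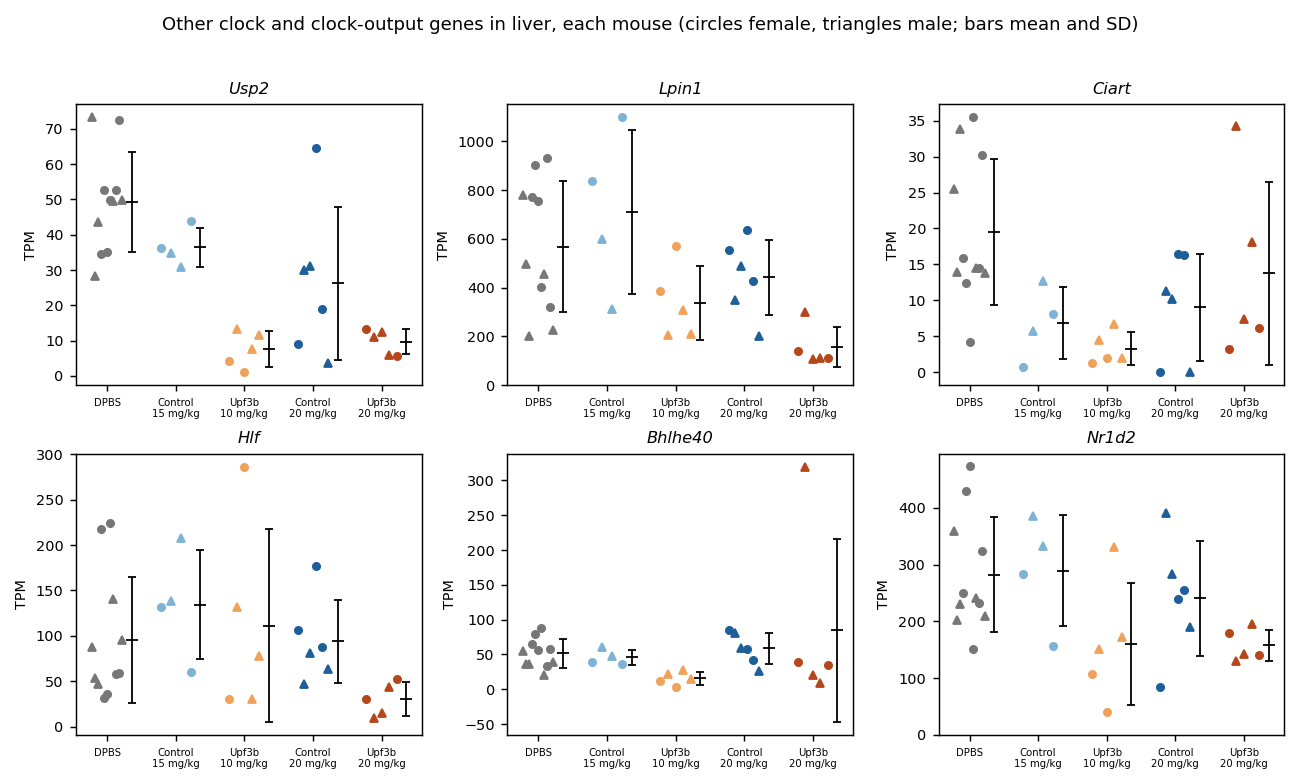
TPM of *Usp2*, *Lpin1*, *Ciart*, *Hlf*, *Bhlhe40* and *Nr1d2* in each liver, by group, with females as circles, males as triangles and the mean and SD as bars. *Usp2* of both *Upf3b* groups, at 13.2 TPM or less, lies below the DPBS minimum of 28.4 TPM, and the *Bhlhe40* value of 319.5 TPM belongs to the mouse with *Dbp* at 0.

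Clock phase in each mouse was described by the difference in log2(TPM + 1) between a gene of the light period and *Arntl*. The contrast compares mice only, since levels of different genes are not on 1 scale here. For *Dbp* it ran from 4.24 to 7.28 in DPBS mice (median 6.13), from 5.17 to 8.02 with the control ASO at 15 mg/kg (median 7.03) and from 4.18 to 7.40 at 20 mg/kg (median 6.03). With the *Upf3b* ASO it ran from 3.92 to 5.78 at 10 mg/kg (median 5.10) and from −0.66 to 7.11 at 20 mg/kg (median 5.52). Every group overlapped the DPBS range, and the value of −0.66 belonged to the mouse with *Dbp* at 0, while all other mice lay at 3.92 or more. The same mouse had the highest *Nr1d1* contrast, 5.34, where DPBS mice ran from 1.82 to 4.78, so its contrasts did not move the same way. For *Per3* the medians were 4.54 in DPBS mice, 4.28 and 3.87 in the control ASO groups and 2.68 and 3.22 in the *Upf3b* groups at 10 and 20 mg/kg. For *Tef* they lay between 8.65 and 9.46. With *Arntl* at 0 in 15 mice, these contrasts follow mainly the other gene, and a pseudocount of 5 brought the mean *Dbp* contrast of DPBS mice from 6.01 to 4.19.

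**Figure D4:**
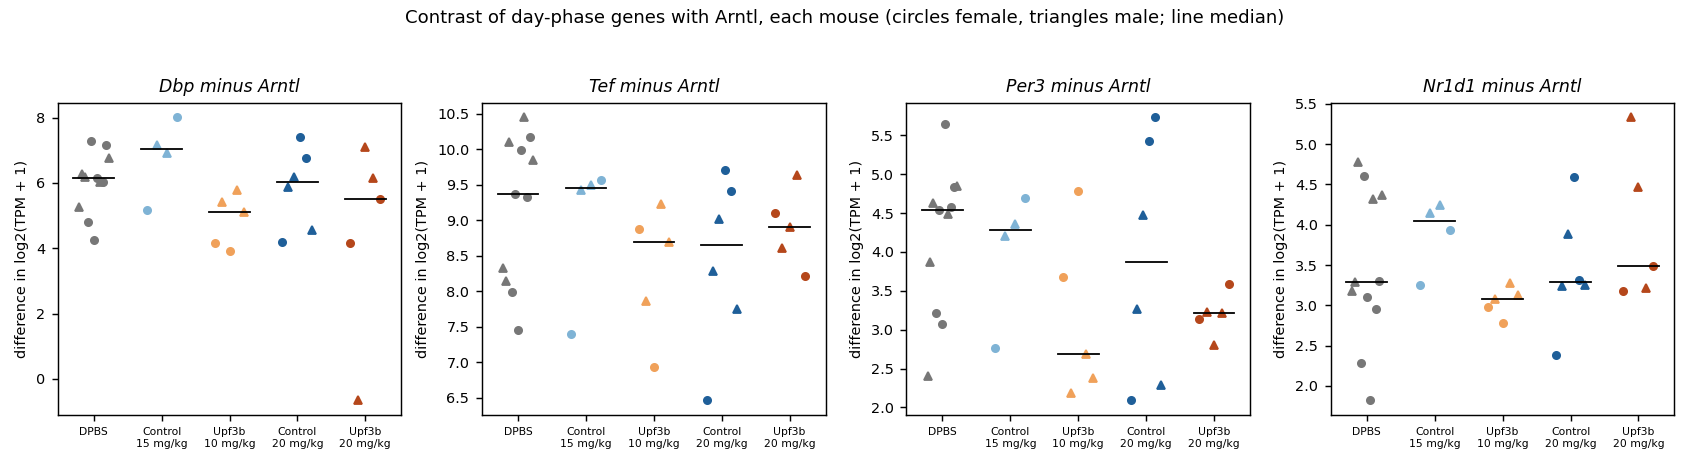
Difference in log2(TPM + 1) of *Dbp*, *Tef*, *Per3* and *Nr1d1* from *Arntl* in each mouse, by group, with the group median as a line. The groups overlap in all 4 panels, and 1 *Upf3b* mouse at 20 mg/kg lies at −0.66 for *Dbp* and at 5.34 for *Nr1d1*.

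Whether mice of 1 group differed in phase among themselves was asked in the 11 DPBS animals. Their SD of log2(TPM + 1) was 0.49 for *Clock*, 0.50 for *Tef*, 0.52 for *Per3*, 0.59 for *Per2*, 0.65 for *Dbp*, 0.67 for *Per1* and 0.92 for *Nr1d1*, beside a median of 0.71 over 8405 genes of like minimum level. Of these 7 genes 6 lay below that median, and *Nr1d1*, at 2.53 TPM in 1 shallow library, lay at the 69.5th percentile. The 8405 genes shared only the minimum of 5 TPM and were not matched for level. Their median therefore cannot show whether the mice shared a phase. The 9 genes with any variation gave 36 pairs, *Npas2* being 0 in all DPBS mice. No pair passed an adjusted p of 0.05 (permutation test with 100000 resamples, two-sided, lowest adjusted p = 0.904), and 1 pair had an unadjusted p under 0.05 by Pearson's r and 1 by Spearman's rho. The first was *Clock* and *Dbp*, with r = −0.65 (permutation p = 0.0313, adjusted p = 0.904) and rho = −0.61 (permutation p = 0.0522, adjusted p = 0.924). The second was *Clock* and *Per3*, with r = −0.49 (permutation p = 0.127, adjusted p = 0.904) and rho = −0.63 (permutation p = 0.0432, adjusted p = 0.924), and r = −0.52 without the 2 mice farthest from the median of *Clock*. Without the same 2 mice the r of *Clock* and *Dbp* was −0.62. It was −0.53 among the 6 females, the 5 males being too few for a value, and −0.79 among the 9 mice over 1500000 reads. With *Arntl* at 0 in 6 of these 11 mice, its pairs could not show whether genes of opposite phase varied against each other. In the 20 ASO mice, after group and sex were removed, *Clock* and *Dbp* had r = −0.23, *Clock* and *Per3* 0.52, of opposite sign to DPBS mice, and *Cry1* and *Dbp* 0.51, given as a description. *Cry1* and *Dbp* stood at 0.53 in DPBS mice, and at 0.32 in the ASO mice without the mouse with *Dbp* at 0.

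**Figure D5:**
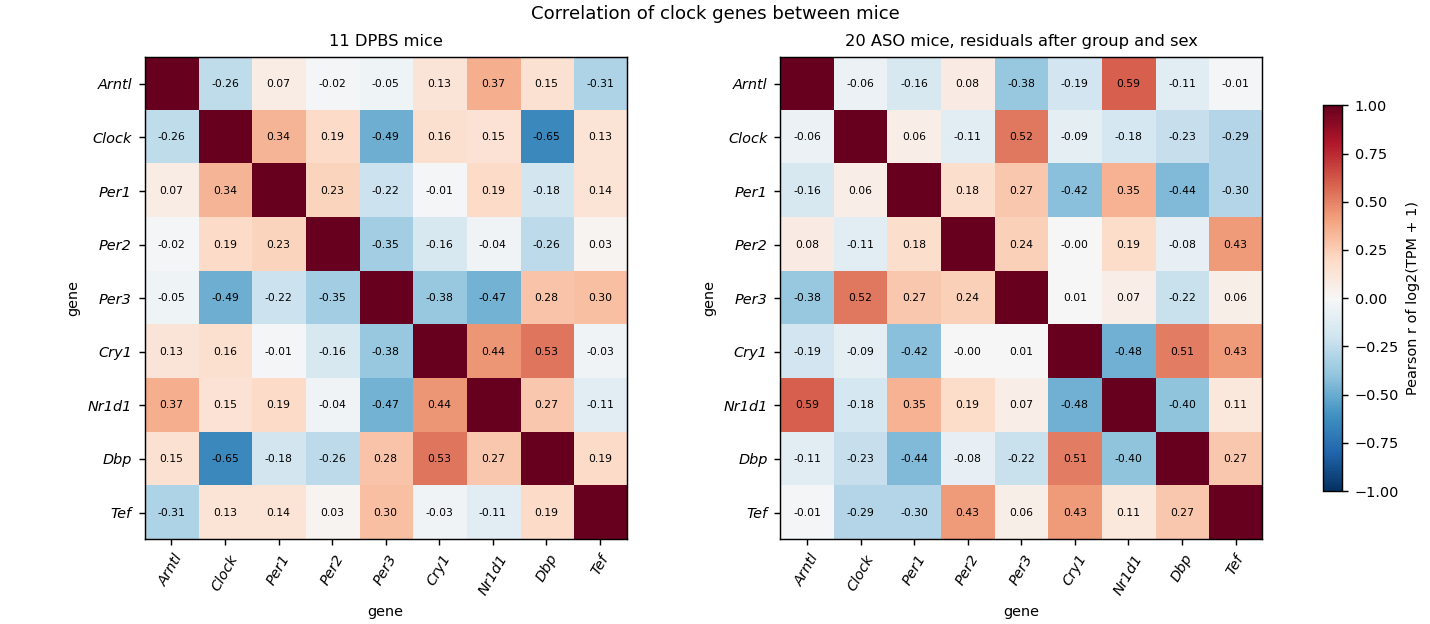
Pearson r of log2(TPM + 1) between clock genes, over the 11 DPBS mice and over the residuals of the 20 ASO mice after group and sex. In DPBS mice r ran from −0.65 (*Clock* and *Dbp*) to 0.53 (*Cry1* and *Dbp*), with no pair past the adjusted threshold.

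The genes most like *Dbp* between mice were sought over the residuals of all 31 mice after group and sex, among 8502 genes whose median over the mice reached 5 TPM. The highest r were 0.84 for *Insr*, 0.81 for *D3Ertd751e*, 0.79 for *Emp2*, *Mgam* and *Gpr182*, and 0.78 for *Acox3*, *Sec14l2* and *Nagpa*. The lowest were −0.85 for *Gdf15*, −0.83 for *Arg1*, −0.82 for *Arl4a*, −0.79 for *Jun*, −0.75 for *Sf3a3*, −0.70 for *Gm4034* and −0.69 for *Nat8f7* and *Nat8f3*. Much of this likeness belonged to the mouse with *Dbp* at 0. Without it *Insr* stood at 0.59, *Gdf15* at −0.56 and *Jun* at −0.28. Over all 31 mice *Tef* reached 0.25 with *Dbp*, and of the output list *Cyp7a1*, the rate-limiting enzyme of bile acid synthesis, reached 0.70. Without the mouse with *Dbp* at 0, *Cyp7a1* stood at 0.37, *Tef* at 0.38 and *Usp2* at 0.61, the highest of the output list.

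For *Arntl* the highest r were 0.63 for *Cyp4a12a*, 0.62 for *Ankrd40*, *Frzb* and *Sphk2*, 0.61 for *Dhx32*, and 0.60 for *Rad17*, *Zc3h4* and *Pus1*. The lowest were −0.65 for *Vsig10*, −0.62 for *Nepro* and *Rassf2*, −0.60 for *Map2k2*, −0.59 for *Rhoq*, −0.57 for *Nfe2l2* and *Tmem126b*, and −0.56 for *Speg*. With 14 reads at most behind any *Arntl* value, these are a description of sparse counts. *Nr1d1*, the repressor of *Arntl*, ranked 28th from the highest at 0.53, and *Dbp* stood at −0.05.

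Between male and female DPBS mice no clock gene was called, where 127 of 8998 genes were (1.41%). The largest difference was 0.81 ± 0.49 for *Nr1d1*, male minus female (SE, adjusted p = 0.599, limma), and the lowest −0.45 ± 0.38 for *Per2* (SE, adjusted p = 0.701, limma). None of the 7 tested clock genes had an unadjusted p under 0.05. In the other clock list the range was from *Bhlhe40* at −0.74 to *Timeless* at 0.90, without a call. The output gene *Elovl3*, a fatty acid elongase, rose in males by 5.52 ± 0.55, while *Avpr1a*, the vasopressin receptor, fell by 1.56 ± 0.37 and *Fkbp5* fell by 1.499 ± 0.34 (SE, adjusted p of 1.73e-05, 0.0345 and 0.0282, limma). The *Avpr1a* and *Fkbp5* calls were lost in 8 and 7 of 11 fits that left out 1 mouse, with adjusted p of up to 0.101 and 0.118, and among mice over 1500000 reads. *Hsp90aa1*, at 0.84, was the highest of the cue genes in males.

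Between doses, the *Upf3b* difference at 20 mg/kg minus that at 10 mg/kg ran from −0.50 ± 0.51 for *Clock* to 1.76 ± 1.17 for *Per1* (SE, adjusted p of 0.803 and 0.70, limma). Without the mouse with *Dbp* at 0, *Per1* gave 0.95, *Dbp* 1.31 and *Cry1*, then above the level minimum, 1.69. The 10 mg/kg term sets 10 mg/kg of the *Upf3b* ASO against 15 mg/kg of the control ASO, while the 20 mg/kg term compares equal doses. No clock gene had an unadjusted p under 0.05 in this test of the difference itself. For the surrounding lists it ran from *Timeless* at −1.20 to *Ciart* at 1.57, from *Cyp7a1* at −1.41 to *Usp2* at 1.45, and from *Hsp90aa1* at −1.69 to *Tsc22d3* at 1.14, again without a call.

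Some markers of liver cells moved with the groups. Of the 5 hepatocyte genes, *Tat*, a tyrosine catabolic enzyme induced by glucocorticoids, was lower by 1.99 ± 0.34 with the *Upf3b* ASO at 10 mg/kg against its control (SE, adjusted p = 0.0237, limma), and its adjusted p was 0.173 without control replicate 2. Against DPBS, *Tat* gave 1.40 for that control and −0.55 for the *Upf3b* ASO at 10 mg/kg (adjusted p of 0.691 and 0.698, limma). *Serpina1c* gave −0.96 to −1.31 in all 4 *Upf3b* comparisons, without a call (adjusted p of 0.0612 or more, limma). At 10 mg/kg the 5 genes summed to 12470 to 26294 TPM with the *Upf3b* ASO and 19047 to 26608 TPM in its control. At 20 mg/kg their sum ran from 13112 TPM, in the mouse with *Dbp* at 0, to 26205 TPM, and in the control from 12989 to 24125 TPM. Of the 4 sinusoidal endothelial genes, *Pecam1* rose by 1.27 ± 0.28 with the *Upf3b* ASO at 20 mg/kg against its control (SE, adjusted p = 0.0201, limma), with an adjusted p of 0.0815 without control replicate 3. The other 3 had negative differences there, −0.72 for *Kdr*, −0.56 for *Clec4g* and −0.08 for *Stab2*, without a call. The 4 genes summed to 1504 to 2192 TPM against 557.8 to 1627 TPM, and to 582.6 to 2373 TPM in DPBS mice. The 5 Kupffer cell genes summed to 121.1 to 267.0 TPM in that *Upf3b* group and 88.2 to 337.3 TPM in its control. Lymphocyte genes summed to at most 18.6 TPM and cholangiocyte genes to at most 18.2 TPM in any mouse, and stellate cell genes to 65.8 to 227.3 TPM. No marker was at 0 throughout a group, except 1 of 4 lymphocyte genes in both control ASO groups and the *Upf3b* group at 20 mg/kg. The part of these cells in the clock gene values was not tested.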

How the data were processed

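RNA of whole liver was sequenced in 31 mice. Per the labels and the study's methods, reads were demultiplexed with bcl2fastq 2.17.1.14 and quantified by the authors with Salmon 0.7.2 against Ensembl mouse transcripts (GRCm38.p4). The deposited values are labelled TPM, summed per gene symbol. The labels name a 3′ tag kit and weekly doses in 1 field, and the methods a whole-transcript kit and the 5-day interval. Which kit made these libraries was not tested. Low values were whole multiples of 1 step per mouse, within 0.02, for 75.7% to 83.4% of genes, too few for a count model. The step gave the inferred reads per library. Of 31198 rows, 26 symbols turned into dates were left out.

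Group differences were tested with limma 3.58.1 (R 4.3.3, trend and robust) on log2(TPM + 1), for genes whose median reached 5 TPM in either group, with sex as covariate and Benjamini-Hochberg adjustment over all genes tested. A gene is called at an adjusted p under 0.05. A fold change on this scale understates that of low genes. Genes under the minimum were compared by exact permutation tests (scipy 1.17.1). The labels do not say that mice of a group were housed or prepared separately, so p-values measure the spread between these samples. Members and lists were chosen with earlier results of these data known. Named beside all members were genes of the lists that were called or stood highest or lowest, and the 8 genes most and least like *Arntl* and *Dbp*. Loci are from GENCODE release 21 of the mouse (GRCm38). Scripts were tested on simulated data. A result that needs a withheld item is not reported here.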

Additional observations from a re-analysis of the deposited data

Results flagged for a closer look

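Within groups of 4 to 6 mice, 38 clock gene and group combinations were checked for a mouse whose gap to its nearest neighbour took up most of the range of log2(TPM + 1), and 7 were found. The limits flag about 1 in 20 when values are normally spread, which genes listed mostly at 0 are not. Where all other mice of a group are at 0, any value above 0 is flagged, as for *Arntl* and *Npas2* in the 15 mg/kg control group. The 7 therefore cannot be set beside that rate. In the 10 mg/kg *Upf3b* group the shallowest library held the lowest *Tef* (120.5 TPM, next 596.7 TPM) and the highest *Npas2* (1.96 TPM, under the floor of 3 reads), and replicate 5 held the lowest *Per1* (1.55 TPM, next 15.4 TPM). In the 15 mg/kg control group replicate 4 held the lowest *Per2* (5.54 TPM, next 21.5 TPM), replicate 1 the highest *Arntl* (2.39 TPM, the others at 0) and replicate 3 the highest *Npas2* (0.276 TPM, 1 read). In the 20 mg/kg control group replicate 5 held the lowest *Nr1d1* (8.94 TPM, next 17.5 TPM). The *Dbp* value of 0 TPM at 20 mg/kg of the *Upf3b* ASO (next 28.6 TPM) was not past the limit for a group of 5.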

How the results depend on the processing

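Depth limits *Arntl*, *Npas2* and *Cry1* most, whose values rest on a few reads. Among 364 clock gene values under other settings 350 kept direction and side of the threshold, 13 changed sign and 1 passed the threshold, and among 794 values with 1 mouse left out 751 did so and 43 changed sign. The cause of these changes was not tested. Alternatives restricted to mice over 1500000 reads, and pseudocount 5 for the phase contrast and for genes under the minimum, were chosen after seeing the data.

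For the *Upf3b* ASO at 10 mg/kg against its control the 27 called genes became 56 with a pseudocount of 5, 13 with no level minimum, 10 without the sex covariate, 91 among mice over 1500000 reads, and 2 (without control replicate 3) to 431 (without *Upf3b* replicate 1) with 1 mouse left out. At 20 mg/kg the 236 became 105 with no minimum, 143 among mice over 1500000 reads and 70 (without control replicate 3) to 270 with 1 left out. Quantile normalization made 48.0% of the 20 mg/kg calls higher, against 36.9%. Against DPBS, the *Upf3b* counts of 34 and 103 became 62 and 163 with all 31 mice in 1 fit, and the second ran from 56 (without *Upf3b* replicate 6) to 119 with 1 left out. The control ASO counts of 0 became 3 at 15 mg/kg with no minimum and 1 at 20 mg/kg with a pseudocount of 5, and ran from 0 to 1 and from 0 to 7 with 1 left out. The count for the difference between doses ran from 0 to 13. The mean *Dbp* phase contrast of DPBS mice was 4.19 with a pseudocount of 5.

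Replicate numbers did not pair the mice: residuals of same-numbered mice correlated at a mean of −0.084 to 0.064, and in no comparison were all above 0.1. With the replicate number as a block the counts were 95, 45, 2, 9 and 42 for *Upf3b* 10 mg/kg against control, *Upf3b* 20 mg/kg against control, control 15 mg/kg against DPBS, and *Upf3b* 10 and 20 mg/kg against DPBS, and 1 clock gene was called, *Dbp* at 10 mg/kg against control (−1.97, adjusted p = 0.0429, limma). Against DPBS, *Nr1d1* became −0.35 and −0.36 for the control ASO at 15 and 20 mg/kg and −0.22 for the *Upf3b* ASO at 20 mg/kg with the block, *Per2* became 0.20 for the control ASO at 15 mg/kg and *Per1* 0.066 for the *Upf3b* ASO at 10 mg/kg. The *Dbp* difference between doses became −1.28. The calls of *Usp2*, *Ciart* and *Hlf*, and of *Lpin1* against the control ASO, were also not made with the block.

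Among mice over 1500000 reads the control ASO at 20 mg/kg against DPBS gave −0.10 for *Nr1d1* and 0.053 for *Per3*, *Tef* at *Upf3b* 20 mg/kg against control gave −0.068, and the differences between doses were −0.47 for *Dbp* and −0.054 for *Tef*. Quantile normalization gave −0.074 for *Nr1d1* in the control ASO at 20 mg/kg and 0.042 for *Dbp* between sexes. It moved the median of all genes from 0.15 to 0.04 for the control ASO at 20 mg/kg against DPBS, and from −0.07 to 0.07 for the difference between doses.

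With 1 mouse left out, signs changed for *Nr1d1* (−0.12 to 0.39) and *Per2* (−0.58 to 0.22) with the control ASO at 15 mg/kg, for *Dbp* (−0.20 to 0.17), *Nr1d1* (−0.093 to 0.24) and *Per3* (−0.31 to 0.091) at 20 mg/kg, for *Per1* (−0.34 to 0.41) and *Nr1d1* (−0.22 to 0.46) with the *Upf3b* ASO at 10 and 20 mg/kg, all against DPBS, for *Nr1d1* (−0.32 to 0.37) and *Tef* (−0.11 to 0.25) between the 20 mg/kg groups, for *Dbp* (−0.24 to 0.23) and *Per1* (−0.34 to 0.10) between sexes, and for *Dbp* (−0.54 to 1.31) and *Per2* (−0.42 to 0.28) in the difference between doses.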
